A study of Mus musculus with 18 samples.

Results

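Transcripts of 6 lipid hydrolase genes, Aig1, Adtrp, Ces1d, Ces1f, Pnpla3 and Prdx6, were followed in mouse adipocytes in which the transcription factor IRF3 had been activated or deleted. The 6 genes were taken by name from 33440 genes measured, and all 6 passed the filter on low counts in both experiments. FAHFAs (fatty acid esters of hydroxy fatty acids) are lipids in which a fatty acid is esterified to the hydroxyl group of another. AIG1 and ADTRP, membrane proteins with a threonine at the active site, cleave that ester bond. The other 4 genes encode enzymes that act on neutral lipids or phospholipids: CES1D and CES1F are carboxylesterases that hydrolyse triacylglycerol and other esters, PNPLA3 (adiponutrin) is a patatin-like lipase of the lipid droplet, and PRDX6 is a peroxiredoxin that also has phospholipase A2 activity.

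All mice were C57BL/6. In the first experiment, SVF (the stromal vascular fraction, which holds adipocyte precursors) was taken from inguinal fat of IRF3-2D mice 4 to 6 weeks old and differentiated in culture. IRF3-2D is a constitutively active Irf3 allele that stays silent until Cre recombinase acts on it. The WT cells (3 libraries) received AAV-GFP on day 6 and the FI3OE cells (3 libraries) received AAV-GFP-Cre, and RNA was taken on day 8, so both groups carried the allele and FI3OE differed from WT in Cre as well as in active IRF3. In the second, RNA bound to GFP-tagged ribosomes was pulled down (TRAP) from eWAT (epididymal white fat) of Ad-NuTRAP mice (WT, 6 libraries) and FI3KO-Ad-NuTRAP mice (FI3KO, 6 libraries), the latter with adipocyte Irf3 deleted. These mice were put on HFD (high-fat diet) at 8 weeks of age and fed for 8 weeks at thermoneutrality. Both the ribosome tag and the deletion depend on Adipoq-Cre, which is active in adipocytes, so WT mice of this experiment carried Cre and the tag as well. TRAP reads RNA on ribosomes, not total RNA. The labels call the libraries biological replicates without saying what was separate, so p-values measure the spread between these libraries.

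Libraries held between 21541334 and 40490283 estimated reads. The label of the cells was checked on 18 adipocyte marker genes, which were present in every group with summed levels of 10740 to 12000 CPM (a gene's share of the reads of a library, scaled to a fixed total by TMM normalisation) in the cultured cells and 43400 to 59810 CPM in TRAP. Cultured cells also held 2329 to 2544 CPM of 15 macrophage markers and 13020 to 14190 CPM of 10 preadipocyte and fibroblast markers. Irf3 itself was read first as a check of genotype: its transcript Irf3-202 had no read in the 6 FI3KO libraries and 163.6 to 388.1 in the WT TRAP libraries. Summed over transcripts, Irf3 had 12.5 to 19.97 CPM in FI3KO and 16.4 to 22.8 CPM in WT TRAP (log2 fold change -0.35, edgeR adjusted p = 0.0198). With a length offset this sum was at 0.71 instead (edgeR adjusted p = 0.00181), and with a replicate block it was not called (edgeR adjusted p = 0.0538). Transcripts Irf3-211 and Irf3-210 rose in FI3KO, at means of 4.77 against 0.11 CPM and 1.26 against 0.20 CPM (edgeR adjusted p = 0.00506 and 0.00161). Irf3 had 91.4 to 101.6 CPM in FI3OE and 56.8 to 57.9 CPM in WT SVF-derived adipocytes (log2 fold change 0.73, edgeR adjusted p = 3.3e-07). The TRAP libraries fell into replicates 1 and 2 and replicates 3 to 6 in both genotypes. Libraries within a set were closer to each other than libraries across sets, and the labels do not say what sets them apart. For this reason TRAP values of the 6 genes and of the list genes named are also given within each set. Among TRAP pairs, WT replicates 1 and 2 were the closest (mean chi-square per gene of 2.15). They still differed by more than counting error, which does not show whether they came from separate animals. They were kept as 2 samples, as labelled.

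The promoters of both FAHFA hydrolase genes are shown because IRF3 is a DNA-binding factor and its activity was what the groups differed in. The stretches printed lie upstream of every annotated transcript start, within windows from 250 bases before to 50 bases after the start, and come from RefSeq (GRCm38.p6), 5′ to 3′ on the gene's strand. Capitals mark matches to AANNGAAA, a core motif of the IRF family, on either strand. Of the 6 genes, 3 have a window in the table used, Aig1, Adtrp and Pnpla3.
Aig1, chr10:13869039-13869207, minus strand: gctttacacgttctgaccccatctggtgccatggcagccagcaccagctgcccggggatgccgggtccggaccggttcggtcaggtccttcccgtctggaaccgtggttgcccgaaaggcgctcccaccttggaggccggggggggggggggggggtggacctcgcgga
Adtrp, chr13:41847685-41847866, minus strand: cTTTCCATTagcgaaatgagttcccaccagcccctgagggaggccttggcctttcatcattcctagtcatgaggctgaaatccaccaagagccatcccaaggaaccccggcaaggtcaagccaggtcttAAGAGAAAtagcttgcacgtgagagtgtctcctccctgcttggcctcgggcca
The Aig1 stretch has 70.4% G and C and no match, and the Adtrp stretch has 1 match on each strand. Across 32851 promoter windows, 23.92% held AANNGAAA. Pairs of GAAA with NN or N between them were in 3.44% and 3.17% of windows on either strand, the former always containing AANNGAAA as well, and in none of those of Aig1, Adtrp or Pnpla3. A match describes letters only, and its absence says nothing of IRF3 at other positions.

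In WT cells, Aig1 and Adtrp were minor transcripts among the lipid hydrolases, and their order differed between the 2 kinds of sample. Levels between genes are compared in TPM (a transcript's share of a library after correction for its length), as the median over the libraries of a group. In WT SVF-derived adipocytes the order was Prdx6 at 717.6 TPM, Pnpla3 at 250.5, Ces1d at 28.3, Aig1 at 10.7, Ces1f at 4.79 and Adtrp at 1.58, and no neighbours in this order overlapped in range. In WT TRAP it was Prdx6 at 2123 TPM, Pnpla3 at 1027, Ces1d at 633.2, Ces1f at 23.99, Adtrp at 20.5 and Aig1 at 11.3. There, Pnpla3 and Ces1d overlapped in range, as did Ces1f and Adtrp. These values sum all transcripts of a gene, coding or not. On coding transcripts alone, Prdx6 was at 26.97 to 28.18 TPM in WT SVF-derived adipocytes and 23.53 to 47.29 TPM in WT TRAP. Pnpla3 then lay above Prdx6 in both groups, at 152.0 to 171.6 and 499.6 to 561.2 TPM. Coding transcripts of Ces1d were at 24.17 to 26.33 TPM in WT SVF-derived adipocytes. In WT TRAP they were at 455.8 to 1147 TPM, above Prdx6 and overlapping Pnpla3. How well Prdx6 reads can be divided between its transcripts is limited, as given below. Adtrp stood at percentile 16.1 of the genes tested in the cultured cells and at 55.2 in TRAP, while Aig1 stood at 42.8 and 42.3. Depot, culture, diet, age, genotype, mix of cells and assay differ between these groups and cannot be told apart.

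Among 67 genes of the hydrolase lists, the 5 highest in WT SVF-derived adipocytes were Lpl (lipoprotein lipase, 3154 TPM), Pnpla2 (ATGL, the first triacylglycerol lipase of lipolysis, 1696 TPM), Plin1 (perilipin, the droplet coat, 1299 TPM), Lipe (hormone-sensitive lipase, 740.5 TPM) and Prdx6. In WT TRAP they were Lpl (6477 TPM), Plin1 (5021 TPM), Lipe (2925 TPM), Prdx6 and Mgll (monoacylglycerol lipase, 1983 TPM). By rank in the same lists, Aig1 was 38 in the cultured cells and 40 in TRAP, and Adtrp was 45 and 38. The plot of levels in WT libraries draws 8 of 15 acylglycerol lipases and cofactors, chosen after their values were seen, and both FAHFA hydrolase genes lie below these 8. Of those not drawn, Dagla (5.03 TPM) and Aadac (0 TPM) had lower medians than Aig1 in the cultured cells. In TRAP, Dagla (9.39 TPM), Nceh1 (1.73 TPM) and Aadac (0.27 TPM) had lower medians than either.

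**Figure D1:**
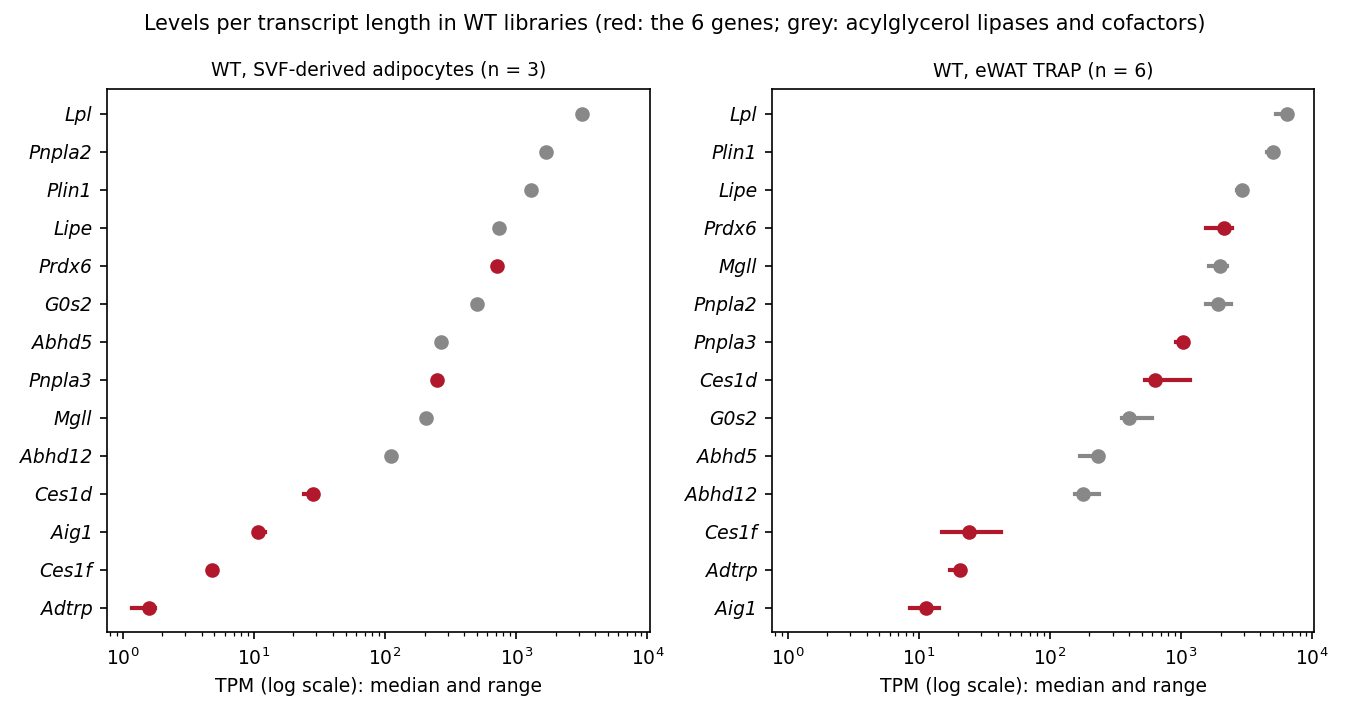
Transcript level on a log axis (TPM) in WT SVF-derived adipocytes (n = 3) and WT eWAT TRAP (n = 6), with points for medians and lines for the range over libraries. Red marks the 6 genes and grey 8 acylglycerol lipases and cofactors. Adtrp is the lowest in the cultured cells at 1.58 TPM, and Aig1 is the lowest in TRAP at 11.3 TPM.

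In FI3OE against WT SVF-derived adipocytes, which asks what changes in these mixed cultures when IRF3 is active, Aig1, Pnpla3 and Prdx6 rose and Ces1d fell. Of the 6 genes, 3 rose and 1 fell at an adjusted p of 0.05 or less, and the called changes were at most 0.57 on the log2 scale. The background was large, since 37% of 16105 genes tested were called (20.2% higher and 16.8% lower), and 3.62% were also changed by 1 or more on the log2 scale (1.99% higher and 1.63% lower). The plot of fitted changes gives each gene with its interval, and the plot of values by library shows the points behind it.

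**Figure D2:**
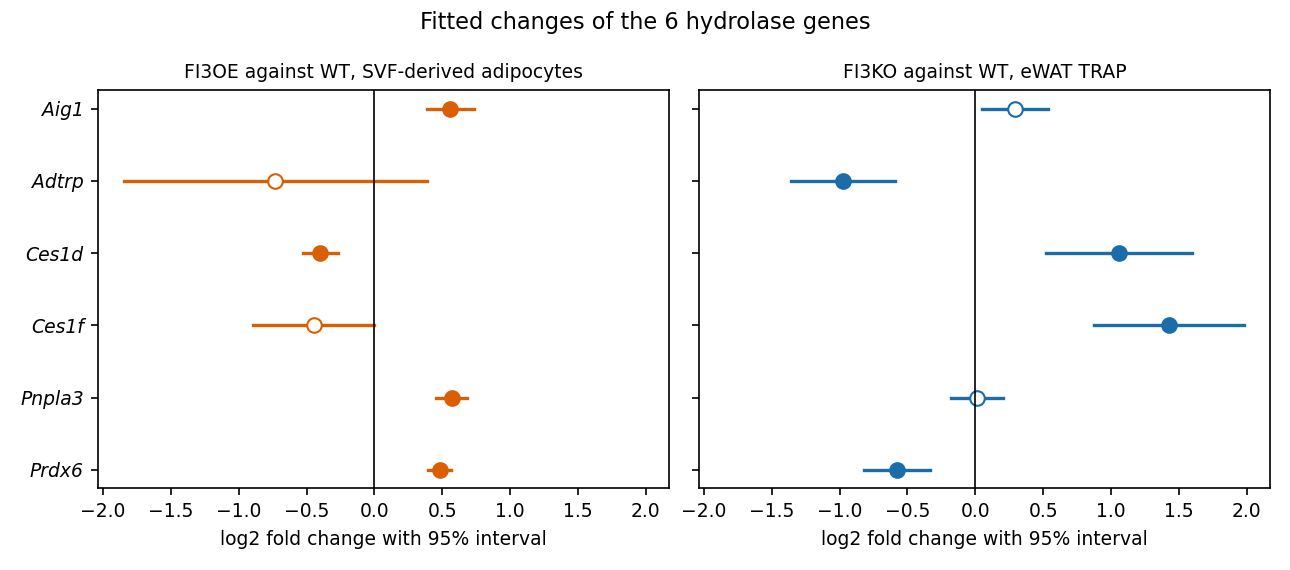
Log2 fold change (points) with its 95% interval (lines) for each gene, in FI3OE against WT (n = 3 each) and FI3KO against WT (n = 6 each). Filled points passed the edgeR test with adjustment over all genes: Aig1, Ces1d, Pnpla3 and Prdx6 in the cultured cells, and Adtrp, Ces1d, Ces1f and Prdx6 in TRAP.

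Aig1 (ENSMUSG00000019806, GRCm38 chromosome 10, 13647054 to 13868980, minus strand) had 12.7, 13.4 and 12.9 CPM in the FI3OE libraries and 9.17, 8.52 and 8.74 CPM in WT. Each FI3OE value was higher than each WT value. The log2 fold change was 0.56 (standard error 0.0796, 95% interval 0.39 to 0.73, edgeR adjusted p = 2e-04). An exact permutation test gave p = 0.1, the smallest that 3 libraries against 3 allow, and 49.5% of all genes tested were without overlap between the groups. These values rest on 184 to 473 reads of the gene per library.

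Adtrp (ENSMUSG00000058022, chromosome 13, 41763148 to 41847684, minus strand) was close to the limit of measurement in the same cells. It had 15, 5 and 7 reads in FI3OE and 9, 12 and 17 reads in WT, or 0.634, 0.187 and 0.191 CPM against 0.372, 0.556 and 0.670 CPM. FI3OE replicates 2 and 3 lay below every WT library and replicate 1 lay among them. The log2 fold change of -0.73 had a 95% interval from -1.84 to 0.38 (edgeR adjusted p = 0.291), so a change of either sign was not resolved at this depth. Single libraries decided its size, which was -1.47 without FI3OE replicate 1 (edgeR adjusted p = 0.048), -0.47 without replicate 2 (edgeR adjusted p = 0.566) and -0.40 without replicate 3 (edgeR adjusted p = 0.632).

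Both carboxylesterases lie on the minus strand of chromosome 8, Ces1d (ENSMUSG00000056973) from 93166068 to 93197838 and Ces1f (ENSMUSG00000031725) from 93256236 to 93279747. Because they are paralogs, it matters whether reads can be told apart. The coding sequences of Ces1d-201 and Ces1f-201 were identical at 77.9% of 1682 aligned bases, with a longest identical run of 53 bases. Of the 31-base words of each transcript, 7.5% for Ces1d-201 and 4.9% for Ces1f-201 also occurred in another carboxylesterase gene. A stretch from coding base 61 to 150 is given for each from the GENCODE M21 transcripts, with capitals at the 18 positions that differ.
Ces1d-201: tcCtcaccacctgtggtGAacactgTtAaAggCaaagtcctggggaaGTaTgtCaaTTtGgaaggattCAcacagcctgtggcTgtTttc
Ces1f-201: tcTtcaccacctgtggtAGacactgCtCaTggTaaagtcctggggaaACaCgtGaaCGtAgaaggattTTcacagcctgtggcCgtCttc
Reads from shared words are divided between the genes by Salmon's model.

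Ces1d fell in FI3OE. It had 20.6, 21.5 and 19.9 CPM in FI3OE and 28.7, 26.0 and 27.0 CPM in WT, with no overlap (log2 fold change -0.40, standard error 0.0585, edgeR adjusted p = 0.000247). In the fit that held all 18 libraries the adjusted p of this value was 0.594. Ces1f had 1.82, 2.84 and 3.41 CPM in FI3OE and 3.59, 3.89 and 3.70 CPM in WT. Its groups did not overlap either, but the FI3OE libraries were spread and the log2 fold change of -0.45 was not called (95% interval -0.90 to -0.0026, edgeR adjusted p = 0.108). It was -0.67 without FI3OE replicate 3 (edgeR adjusted p = 0.0341) and -0.24 without FI3OE replicate 1 (edgeR adjusted p = 0.277).

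Pnpla3 (ENSMUSG00000041653, chromosome 15, 84167837 to 84187236, plus strand) rose from 87.2, 79.0 and 83.7 CPM in WT to 120.6, 132.6 and 118.2 CPM in FI3OE. The log2 fold change was 0.57 (standard error 0.0518, edgeR adjusted p = 5.96e-06). Prdx6 (ENSMUSG00000026701, chromosome 1, 161240112 to 161251219, minus strand) rose from 314.9, 323.1 and 303.4 CPM to 434.2, 428.0 and 450.3 CPM, a log2 fold change of 0.48 (standard error 0.0381, edgeR adjusted p = 2.03e-06). For both genes every FI3OE library lay above every WT library. The summed adipocyte markers were lower in FI3OE (10740 to 11320 CPM) than in WT (11910 to 12000 CPM). Of the 18 markers 5 rose and 9 fell, where 20.2% of all genes rose and 16.8% fell, and Car3 alone, at a mean of 1366 against 2485 CPM, fell by more than the sum did, while Adipoq rose (1022 against 766.8 CPM). Also lower in FI3OE was the sum of the preadipocyte and fibroblast markers (13020 to 13230 against 13590 to 14190 CPM), of which 2 of 10 rose and 3 fell (median log2 fold change 0.0012), and macrophage markers overlapped (2329 to 2381 against 2372 to 2544 CPM). The share of reads on mitochondrial-genome and rRNA genes was 1.01% to 1.16% in FI3OE and 2.12% to 2.31% in WT. The part of the marker cells in these results was not tested, and without the mitochondrial-genome and rRNA genes the calls of the 6 genes were the same. In bulk RNA, fewer cells of a type and less RNA per cell cannot be told apart.

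**Figure D3:**
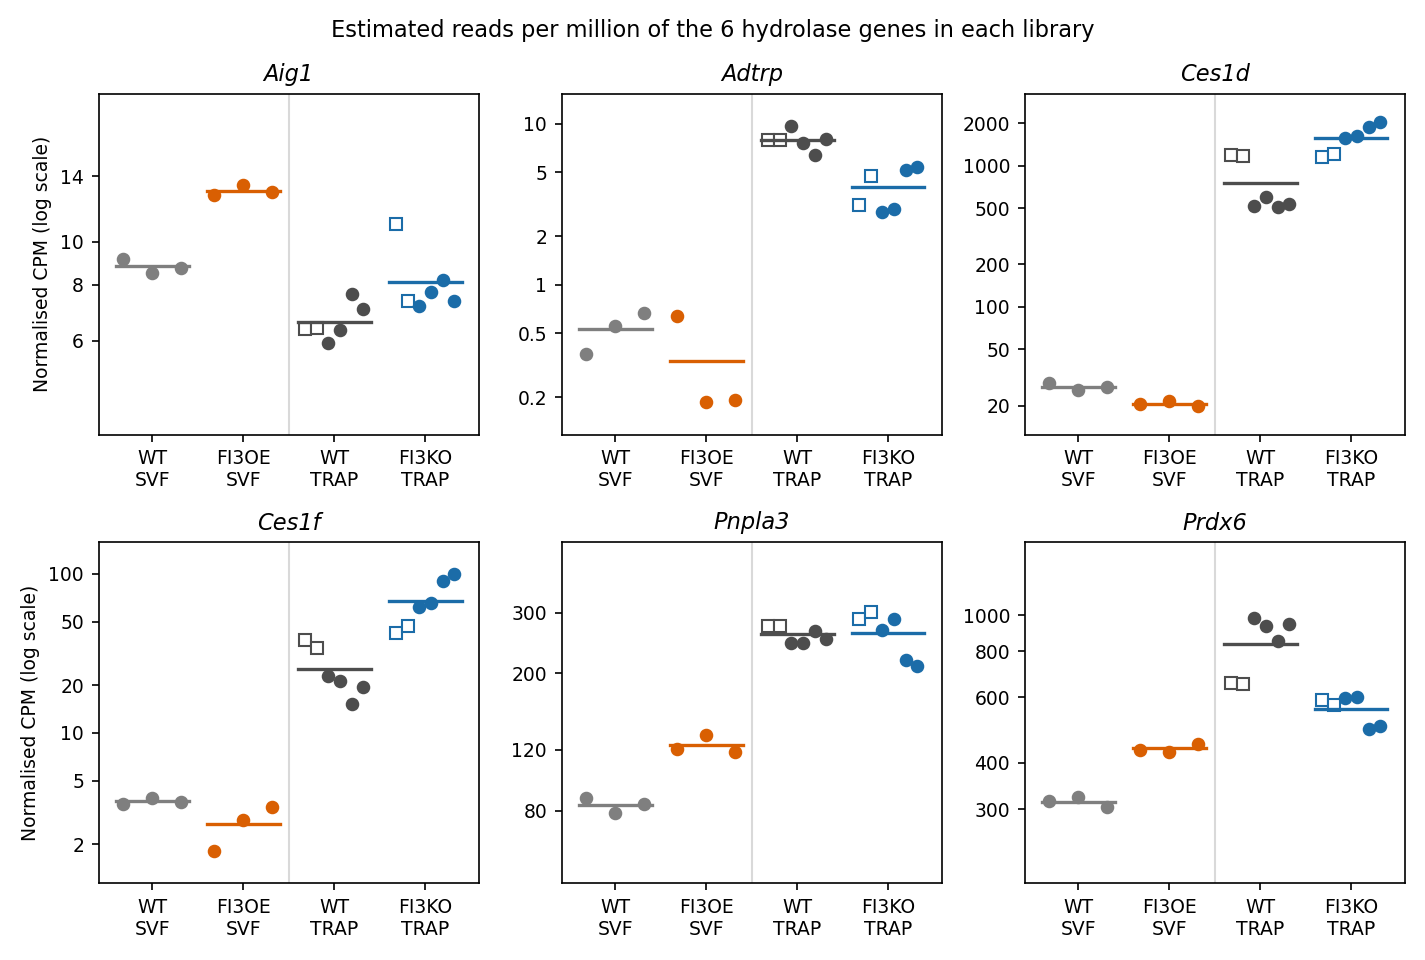
Normalised CPM on a log axis for each gene, 1 point per library and lines for group means. Open squares are TRAP replicates 1 and 2. The SVF and TRAP libraries of each panel were normalised separately. Aig1 lies at 12.7 to 13.4 CPM in FI3OE against 8.52 to 9.17 CPM in WT, and Adtrp at 2.81 to 5.36 CPM in FI3KO against 6.36 to 9.63 CPM in WT TRAP.

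In FI3KO against WT TRAP, which asks what loss of IRF3 changes in adipocytes of mice on HFD, Adtrp and Prdx6 fell and Ces1d and Ces1f rose. Of the 6 genes, 2 rose and 2 fell at an adjusted p of 0.05 or less, against a background of 37.4% of 13624 genes called (19.1% higher and 18.3% lower). Both genes that rose also had a log2 fold change of at least 1, as 1.74% of all genes did in that direction (6.61% in either direction). Groups without overlap were found for 3 of the 6 genes, all 3 called, beside 16% of all genes tested.

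Adtrp had 3.11, 4.76, 2.81, 2.97, 5.12 and 5.36 CPM in FI3KO replicates 1 to 6 and 7.96, 7.96, 9.63, 7.60, 6.36 and 8.01 CPM in WT. All 6 FI3KO libraries lay below all WT libraries. The log2 fold change was -0.97 (standard error 0.178, 95% interval -1.36 to -0.59, edgeR adjusted p = 0.00137), and the exact permutation p of 0.00216 was the smallest that 6 libraries against 6 allow. The difference was nearly the same in both sets of replicates, with means of 3.93 against 7.96 CPM in replicates 1 and 2 and 4.07 against 7.90 CPM in replicates 3 to 6. Within the sets the log2 fold change was -1.0017 (edgeR adjusted p = 0.0628) and -0.95 (edgeR adjusted p = 0.00551), and the difference between these was 0.06 (edgeR adjusted p = 0.929). Each value rests on 74 to 328 reads.

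Aig1 was not called in TRAP and lay on the higher side in FI3KO. Its levels were 10.9, 7.35, 7.19, 7.73, 8.20 and 7.38 CPM in FI3KO and 6.38, 6.42, 5.93, 6.34, 7.62 and 7.09 CPM in WT. The groups overlapped, with 3 of 6 FI3KO libraries above every WT library. The log2 fold change of 0.29 had a 95% interval of 0.05 to 0.54 (edgeR adjusted p = 0.0552, exact permutation p = 0.013). DESeq2's Wald test gave an adjusted p of 0.0472. Without FI3KO replicate 1, the highest library, the log2 fold change was 0.19 (edgeR adjusted p = 0.111). Replicates 3 to 6 alone gave 0.18 (edgeR adjusted p = 0.171), replicates 1 and 2 alone 0.52 (edgeR adjusted p = 0.184), and the length offset 0.45 (edgeR adjusted p = 0.0368).

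Which of the 2 FAHFA hydrolase transcripts was the more abundant thus differed between the TRAP genotypes. In WT the Aig1 to Adtrp ratio of TPM was 0.579, 0.507, 0.398, 0.577, 0.801 and 0.673 in replicates 1 to 6, with Adtrp the higher in 6 of 6 libraries. In FI3KO it was 2.89, 1.22, 1.76, 1.498, 1.43 and 1.06, with Aig1 the higher in 6 of 6. The mean log2 ratio was 0.64 ± 0.51 in FI3KO and -0.80 ± 0.35 in WT (SD, n = 6 each), a difference of 1.43. This ratio was computed after the values of both genes had been seen and is a description. In estimated reads, which take no account of length, the difference was 1.30 and 1 of 6 WT libraries had more Aig1 than Adtrp. In SVF-derived adipocytes Aig1 was the higher in all 6 libraries, by 6.08-fold to 10.4-fold in WT and by 6.99-fold to 38.7-fold in FI3OE, on an Adtrp count of at most 17 reads.

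**Figure D4:**
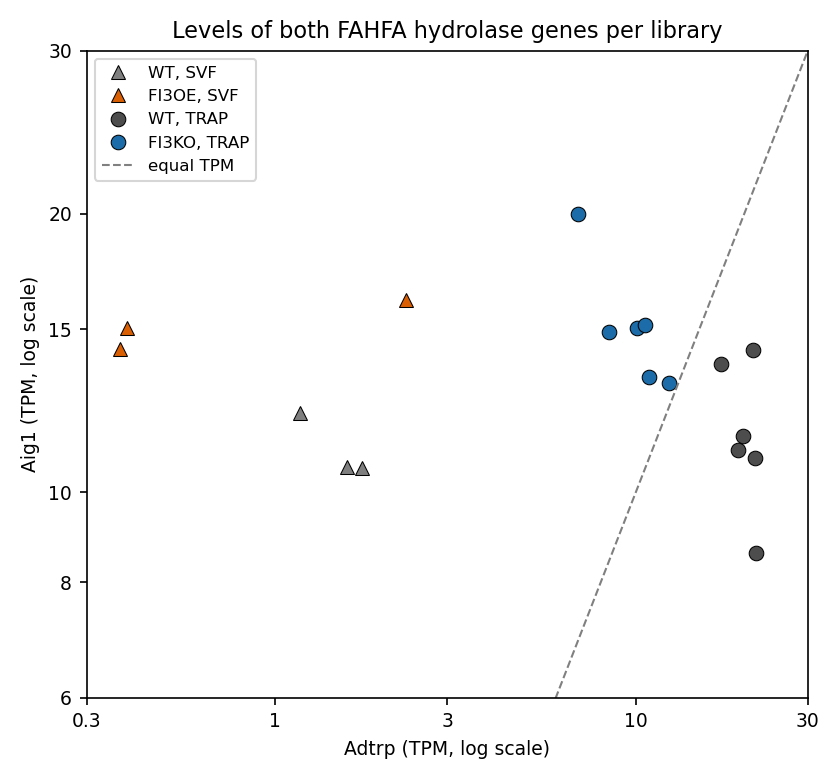
Adtrp (horizontal) against Aig1 (vertical) in TPM, both on log axes of different span, 1 point per library. The dashed line marks equal TPM. The 6 WT TRAP libraries lie on the Adtrp side of the line, the 6 FI3KO libraries on the Aig1 side, and all SVF libraries far to the left at 0.371 to 2.31 TPM of Adtrp.

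Ces1d had 1148, 1202, 1579, 1610, 1882 and 2026 CPM in FI3KO replicates 1 to 6 and 1189, 1179, 520.2, 595.3, 511.2 and 536.0 CPM in WT. The first 2 replicates of both genotypes were alike, and the other 4 were apart. Over all libraries the log2 fold change was 1.06 (standard error 0.25, edgeR adjusted p = 0.00587). For replicates 3 to 6 it was 1.72 (edgeR adjusted p = 7.62e-07), and for replicates 1 and 2 it was -0.0041 (edgeR adjusted p = 0.969), and the interaction of genotype and set had an edgeR adjusted p of 1.55e-05. Such an interaction was called for 26.5% of the genes tested.

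Ces1f had 42.3, 47.2, 61.7, 66.0, 90.7 and 99.3 CPM in FI3KO and 38.2, 34.3, 22.9, 21.3, 15.1 and 19.4 CPM in WT, without overlap. Its log2 fold change of 1.43 (standard error 0.256, edgeR adjusted p = 0.00122) came to 2.01 for replicates 3 to 6 (edgeR adjusted p = 1.07e-05) and to 0.31 for replicates 1 and 2 (edgeR adjusted p = 0.117). This difference between the sets also passed the test (edgeR adjusted p = 0.000908).

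Prdx6 fell from 657.0, 651.6, 983.2, 932.5, 850.6 and 943.9 CPM in WT to 591.6, 572.1, 598.5, 603.1, 492.9 and 502.6 CPM in FI3KO. No library of one group reached the other, and the log2 fold change was -0.58 (standard error 0.112, edgeR adjusted p = 0.00193). Replicates 3 to 6 alone gave -0.75, and replicates 1 and 2 gave -0.16 with an adjusted p of 0.155 in edgeR. The sets differed here too (edgeR adjusted p = 0.00713). Pnpla3 had 210.7 to 300.1 CPM in FI3KO (median 277.0) and 244.7 to 275.1 CPM in WT (median 257.9). Its log2 fold change was 0.01 with a 95% interval from -0.18 to 0.21 (edgeR adjusted p = 0.919). It came to -0.0307 for replicates 3 to 6 (edgeR adjusted p = 0.81) and to 0.0991 for replicates 1 and 2 (edgeR adjusted p = 0.318).

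Markers of other cells moved with the sets of replicates as well. The sum of 15 macrophage markers was 39.6 and 50.2 CPM in FI3KO replicates 1 and 2 against 42.2 and 41.9 CPM in WT, and 17.1 to 19.7 CPM in FI3KO replicates 3 to 6 against 76.5 to 105 CPM in WT. Of 12 macrophage markers tested over all TRAP libraries, 10 fell and 1 rose, where 18.3% of all genes fell and 19.1% rose, and no marker of the list was at 0 in every library of a group. The sum of 10 preadipocyte and fibroblast markers was 560.5 to 1106 CPM in FI3KO and 990.9 to 2208 CPM in WT, and that of 10 endothelial markers 32.1 to 146 CPM and 33.3 to 69.0 CPM. Adipocyte markers summed to 49420 to 59810 CPM in FI3KO and 43400 to 57350 CPM in WT. Of 18 adipocyte markers 7 rose and 2 fell, and of 9 preadipocyte and fibroblast markers tested 1 rose and 2 fell. In replicates 3 to 6 alone 11 of 18 adipocyte markers rose and 2 fell. Of 9 preadipocyte and fibroblast markers 1 rose and 6 fell there, where 50.6% of all genes were called. In replicates 1 and 2 alone 1 of 18 adipocyte markers rose and 2 fell, and 1 of 10 preadipocyte and fibroblast markers rose and 0 fell. The part of these cells in the values of Ces1d, Ces1f and Prdx6 was not tested. For Adtrp, replicates 3 to 6 gave -0.95 and replicates 1 and 2 gave -1.0017 on the log2 scale, the latter on 2 libraries a genotype and not called (edgeR adjusted p = 0.0628). In replicates 1 and 2 the macrophage sums of the genotypes overlapped, and 4 of 10 endothelial markers were called higher in FI3KO (median log2 fold change 1.21), where 3.56% of all genes were called. The part of these cells in the Adtrp values was not tested. The plot of TRAP libraries by replicate number sets the 4 called genes beside the macrophage markers.

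**Figure D5:**
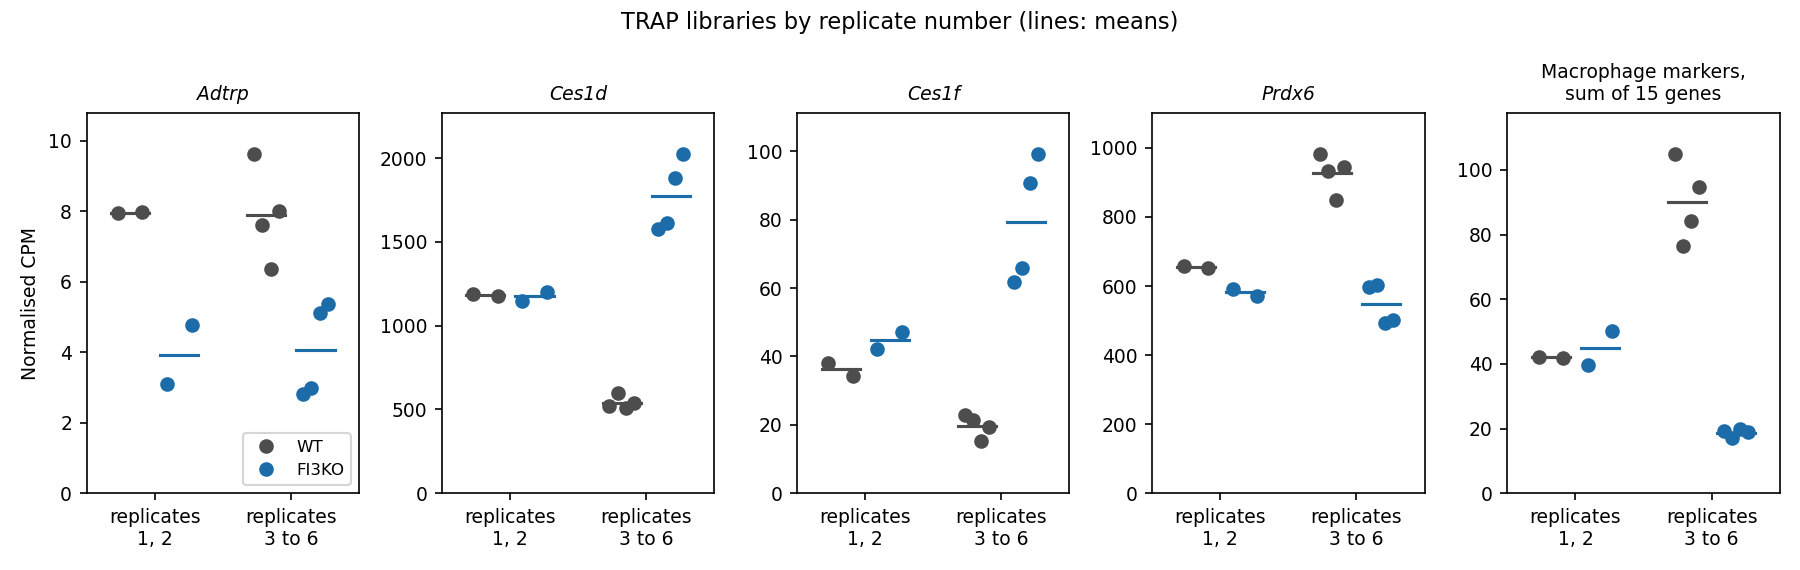
Normalised CPM in TRAP libraries of WT (dark grey) and FI3KO (blue), with replicates 1 and 2 apart from replicates 3 to 6 and lines for means. Adtrp differs between genotypes alike in both sets (3.93 against 7.96 and 4.07 against 7.90 CPM), whereas Ces1d does not in replicates 1 and 2 (1175 against 1184 CPM) and does in replicates 3 to 6 (1774 against 540.7 CPM).

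Single transcripts carried the gene values to unequal extent. Salmon's error in dividing reads between transcripts of a gene is not in these tests, in which 5.47% of 47647 transcripts were called in the cultured cells and 9.54% of 32213 in TRAP. No transcript of Aig1 had an adjusted p below 0.0724 in edgeR in either experiment. The coding transcript Aig1-205 (1554 nt) had 113.2 to 209 reads in FI3OE and 74.4 to 94.3 in WT, with a log2 fold change of 0.64 (edgeR adjusted p = 0.163). Aig1-206, a retained-intron transcript, had 99.4 to 130.6 reads in FI3OE and 37.3 to 74.2 in WT, and a log2 fold change of 0.84 (edgeR adjusted p = 0.147). Coding transcripts held 46.8% to 59.0% of Aig1 reads in the cultured cells, so the CPM of the gene is not the CPM of its coding RNA alone. In TRAP they held 83.2% to 90.3% in FI3KO and 72.3% to 83.7% in WT. On coding transcripts alone, Aig1 was at 12.33 to 19.61 TPM in FI3KO and 8.19 to 11.71 TPM in WT TRAP, without overlap. This difference in coding TPM was not tested, and the share of all genes without overlap in that unit was not computed.

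For Adtrp, the fall in TRAP was called on Adtrp-203 (659 nt), with 6.3 to 37.5 reads in FI3KO and 47 to 88.8 in WT (log2 fold change -1.51, edgeR adjusted p = 0.0378). Adtrp-204, the transcript with the most reads in WT (83.6 to 137.9, against 0 to 155.8 in FI3KO), was not called (log2 fold change -0.88, edgeR adjusted p = 0.564). Adtrp-201 (2440 nt) had a log2 fold change of -1.11 (edgeR adjusted p = 0.0541). Ces1d-201 and Ces1f-201, the main coding transcripts, had log2 fold changes of 1.01 and 1.43 in TRAP (edgeR adjusted p = 0.0456 and 0.00897). Pnpla3-201 rose in FI3OE by 0.61 (edgeR adjusted p = 0.00653).

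Reads of Prdx6 were mostly given to transcripts that are not annotated as coding. Coding transcripts held 1.51% to 7.79% of them in all 18 libraries, and Prdx6-207 (a processed transcript) and Prdx6-208 (annotated for nonsense-mediated decay) held most of the rest. Only 3.1% and 2.3% of the 31-base words of these 2 transcripts are absent from other transcripts of the gene, which limits how well reads can be divided among them. In TRAP the main transcript, Prdx6-208, was at 390.7 CPM in FI3KO and 513.5 CPM in WT and was not called (log2 fold change -0.39, edgeR adjusted p = 0.124). Prdx6-207 fell from 281.6 to 145.2 CPM (log2 fold change -0.96, edgeR adjusted p = 0.0383). Prdx6-202, which is coding and a small part of the gene at 13.7 against 29.96 CPM, had -1.13 (edgeR adjusted p = 0.0168). The other coding transcript, Prdx6-201, was at 4.20 against 3.26 CPM and was not called (log2 fold change 0.37, edgeR adjusted p = 0.543).

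The other adipocyte lipid hydrolases were compared by list. Of 14 acylglycerol lipases and cofactors tested in the cultured cells, 6 rose and 4 fell, where 20.2% of all genes rose and 16.8% fell, with a median log2 fold change of 0.08 against -0.0047 over all genes. Pnpla2 was at -0.20, Lipe at -0.19 and Lpl at -0.25, all called as lower, while Abhd5, the coactivator of ATGL, was at 0.27 and Mgll at 0.25, both called as higher. All 10 of these called values were smaller in size than the log2 fold change of Aig1. The nearest was Nceh1 at 0.49, and its 95% interval (0.34 to 0.64) overlapped that of Aig1 (0.39 to 0.73). In the phospholipase list 9 of 16 rose and 3 fell (median 0.18), and 4 of 6 peroxiredoxins rose (median 0.30), beside the same 20.2% and 16.8%. Abhd3, which cleaves phosphatidylcholines with medium-length acyl chains, rose from 3.89 ± 0.455 to 9.20 ± 0.866 CPM (SD, n = 3 each), with a fitted change of 1.24 on the log2 scale (edgeR adjusted p = 1.34e-05). Abhd4, a hydrolase of N-acyl phospholipids, had a log2 fold change of 0.54 (edgeR adjusted p = 8.22e-07). Of 20 carboxylesterase genes in the annotation, 4 had reads enough for a test, and Ces2g rose by a log2 fold change of 0.87 (edgeR adjusted p = 0.000369).

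In TRAP, 4 of 14 acylglycerol lipases and cofactors rose and 4 fell (median -0.04, against 0.02 over all genes), where 19.1% of all genes rose and 18.3% fell. Pnpla2 rose by 0.63 (edgeR adjusted p = 0.00389), and G0s2, the inhibitor of ATGL, rose by 0.52 (edgeR adjusted p = 0.0095). Ddhd2, a lipase of triacylglycerol and phospholipid, rose by 0.54 (edgeR adjusted p = 0.000342). Nceh1, a neutral cholesterol ester hydrolase, fell by 1.74 on the log2 scale at 0.62 ± 0.61 against 2.07 ± 0.95 CPM (SD, n = 6 each; edgeR adjusted p = 0.0238). Only Ces1d and Ces1f of the carboxylesterase family passed the filter on low counts. Patatin-like genes rose in 2 of 6 cases, and Prdx6 was the 1 peroxiredoxin of 6 to be called, shares that lie near or below the 37.4% of all genes called.

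The phospholipase list in TRAP had 4 of 16 genes higher and 5 lower (median -0.06), where 19.1% and 18.3% of all genes were. By name, Abhd3 was at 0.65 (edgeR adjusted p = 0.0203), Abhd2 at -0.59 (0.00038 by the same test), Pafah2, an acetylhydrolase of platelet-activating factor, at -0.51 (0.00151) and Pla2g4a, the cytosolic phospholipase A2, at -0.93 (0.0136). The interaction of genotype and set was fitted for all 13624 genes tested, but its result for these list genes is not given here. Abhd2 was at -0.65 in replicates 3 to 6 and -0.47 in replicates 1 and 2 (edgeR adjusted p = 0.0822 in the latter). Replicates 3 to 6 had G0s2 at 0.74, Ddhd2 at 0.69, Pafah2 at -0.70 and Pla2g4a at -1.23. Replicates 1 and 2 had them at 0.17, 0.23, -0.11 and -0.27 (edgeR adjusted p = 0.35, 0.144, 0.411 and 0.669). In replicates 3 to 6, Pnpla2 was at 0.79, Abhd3 at 1.14 and Nceh1 at -3.20, and in replicates 1 and 2 they were at 0.37, -0.22 and 0.58 (edgeR adjusted p = 0.0555, 0.308 and 0.398). For the 6 hydrolase genes the adjusted p of edgeR in replicates 1 and 2 alone lay between 0.0628 and 0.969, where 3.56% of all genes were called. In replicates 3 to 6 alone 10 of 14 acylglycerol lipases and cofactors and 4 of the 6 hydrolase genes were called, where 50.6% of all genes were.

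The genes whose profile over the 18 libraries was nearest to each FAHFA hydrolase were found by the root mean square difference of centred log2 CPM, among genes tested in both experiments and with a mean log2 CPM no lower than 1. For Aig1 they were Pfn2, H2-D1, Usf1, Txn1 and Rps27l, at 0.12 to 0.14, where the median over 10636 genes was 0.45. For Adtrp they were Acta1, Slc7a10, Gstm1, Deptor and Sgcd, at 0.38 to 0.47, where the median over 10637 genes was 1.87. Adtrp itself is below that limit in the cultured cells, where it rests on 5 to 17 reads. The 18 libraries share 2 tissues and assays, and the profile of Adtrp is led by the gap between TRAP and cultured cells.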

How the data were processed

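Salmon estimates for 118733 transcripts in 18 libraries, as deposited by the authors, gave expected counts (estimated reads, neither normalised nor whole), TPM and effective lengths. The authors had trimmed reads with fastp and quantified them with Salmon 1.4.0 by selective alignment with sequence and GC bias correction. GENCODE M21 (GRCm38), an earlier release than that of the study, gave the gene of 117850 transcripts (99.26%), and the other 883 each stood for a gene. Expected counts were summed per gene and rounded, and TPM was summed.

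Each experiment was fitted alone with edgeR 4.0.16 (R 4.3.3), using filterByExpr, TMM, the quasi-likelihood test and Benjamini-Hochberg adjustment over all genes tested, without covariates. Exact 2-sided permutation tests used log2(CPM + 0.1) of the libraries (Python 3.11.15), and sequences were aligned with Biopython 1.88. Counts were simulated with 200 genes changed by 1.5 on the log2 scale. Of these, 96.5% were recovered among 16105 genes for the SVF design and 93.5% among 13624 for TRAP, with 16 and 10 false calls. Called changes of Aig1, Adtrp, Ces1d, Ces1f, Pnpla3 and Prdx6 were smaller, at most 0.57 in the cultured cells and 1.43 in TRAP. The real data also had a larger share of genes called, 37% and 37.4%. Recovery at those sizes and shares was not tested, so the simulated rates do not cover these genes. Reads carry no molecular identifiers, so counting error is a lower limit, and it limits Adtrp in the cultured cells most.

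The 6 genes and all lists were chosen with earlier results of these data known. From the lists, called genes whose log2 fold change was 0.5 or more in size are named, with the 5 highest by TPM in each WT group and the 5 nearest profiles. Other lipases were chosen as context after their values were seen. Alternatives were DESeq2 1.42.0 (size factors and Wald test), other filters, a length offset, 1 fit of 18 libraries, a replicate block, sets of replicates and each library left out in turn. The Aig1 to Adtrp ratio in reads and in coding transcripts was added after seeing the data. Mesothelial markers summed to 4.02 to 35.1 CPM over TRAP libraries. Epididymal markers summed to 0.06 to 1.56 CPM in FI3KO and 0.15 to 0.30 CPM in WT TRAP. In replicates 1 and 2 alone the 1 epididymal marker tested was called higher in FI3KO (log2 fold change 7.87).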

Additional observations from a re-analysis of the deposited data

Results flagged for a closer look

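Aig1 in FI3KO TRAP replicate 1, at 10.9 CPM, stood apart from the other 5 FI3KO libraries, which lay between 7.19 and 8.20 CPM. The gap to its neighbour was 0.732 of the range of the group. It was the 1 such case among 30 groups of libraries looked at, where chance gives about 1.5. Without this library the log2 fold change of Aig1 was 0.19 (edgeR adjusted p = 0.111).

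The effect of genotype differed between TRAP replicates 3 to 6 and replicates 1 and 2 for 3 of the 6 genes in the interaction term of edgeR, which was called for 26.5% of all genes tested. The difference of the log2 fold changes was 1.73 for Ces1d (adjusted p = 1.55e-05), 1.70 for Ces1f (adjusted p = 0.000908) and -0.59 for Prdx6 (adjusted p = 0.00713). What sets these replicates apart is not given in the labels, and the cause was not tested.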

How the results depend on the processing

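In SVF-derived adipocytes, Aig1, Pnpla3 and Prdx6 kept direction and call under all 15 alternatives each (log2 fold change 0.50 to 0.59, 0.51 to 0.61 and 0.46 to 0.50). Ces1d was lost only in the 18-library fit (-0.40, edgeR adjusted p = 0.594), and the cause was not tested. Adtrp (-1.47 to -0.40) and Ces1f (-0.67 to -0.24) were each called once with a library left out, as given above. Adtrp had no value with at least 10 counts in every library. With libraries left out in turn, Ces1d ranged from -0.43 to -0.36. The number of genes called was 3800 with the length offset and 1572 in the 18-library fit, and 342 passed both cutoffs there.

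In TRAP, Adtrp, Ces1d, Ces1f and Prdx6 kept direction and call under 24 of 25 alternatives each. The exception was replicates 1 and 2 only, with -1.0017 for Adtrp, -0.0041 for Ces1d, 0.31 for Ces1f and -0.16 for Prdx6, in a fit of 4 libraries that called 500 genes, 191 past both cutoffs. The cause was not tested. With libraries left out in turn, Adtrp ranged from -1.08 to -0.89, Ces1d from 0.97 to 1.23, Ces1f from 1.28 to 1.58 and Prdx6 from -0.65 to -0.53. Aig1 ranged from 0.19 to 0.34 in the same way and was called without WT replicate 5 (edgeR adjusted p = 0.0431). It was also called with DESeq2 (0.29), the length offset (0.45) and the 18-library fit (0.29). Pnpla3 lay on both sides of 0, from -0.0356 to 0.0615 with libraries left out, at -0.0026 with at least 10 counts in every library and at -0.0307 in replicates 3 to 6 only. Irf3 changed sign with the length offset (0.71) and was not called with the replicate block (-0.36) or in replicates 1 and 2 only (-0.18). The number past both cutoffs was 574 with at least 10 counts in every library, 1355 in the 18-library fit and 1868 in replicates 3 to 6 only.

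Deviations of same-numbered libraries from their group means correlated at -0.04 to 0.09 in the SVF experiment, where replicate 1 was closest to its own number. In TRAP they correlated at -0.36 to 0.02, and no library was closest to its own number. These values gave no sign of pairing by number. They cannot exclude it, since SVF groups are small and the genotype effect differed between the TRAP sets. With the replicate block, 5658 genes were called in the SVF experiment and 3632 in TRAP, 579 and 736 of them past both cutoffs, and no call of the 6 genes changed. The level of Pnpla3 in WT SVF-derived adipocytes was 257.8 TPM without mitochondrial-genome and rRNA genes. The Aig1 to Adtrp difference in TRAP was 1.76 on coding transcripts alone.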
